A study of Mus musculus with 21 samples.

Results

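The axonemal dynein heavy chain (Dnah), dynein assembly factor (Dnaaf) and cilia and flagella associated protein (Cfap) genes were followed through the cells of mouse melanoma and lung. A gene was a member when its symbol had the form Dnah, Dnai, Dnaaf or Cfap followed by a number. Of the 32285 genes in the count table, 51 met this rule, namely 15 Dnah, 5 Dnaaf and 31 Cfap genes. No gene was listed under a Dnai symbol, because the intermediate chains appeared as Dnaic1 and Dnaic2, which the rule did not take. The 10x 3' assay counts unique molecular identifiers (UMIs), each standing for 1 captured transcript, so levels are given as UMIs per 1000000 UMIs (CPM) summed over the cells of a class in a library, and are not divided by gene length.

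Motile cilia beat through rows of dynein motors that stand on the microtubule doublets of the axoneme. Outer arm dyneins set beat frequency and inner arm dyneins shape the bend, each built around very large heavy chains that carry the motor. The arms are put together in the cytoplasm by assembly factors before they are carried into the cilium, while many Cfap proteins sit inside or between the axonemal microtubules. In the lung these structures belong to the respiratory ciliated cells (RCC) of the airway epithelium, which clear mucus, under control of the transcription factor Foxj1.

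The hosts were adult mice of both sexes of the mT/mG line, in which every cell carries membrane tdTomato from the Gt(ROSA)26Sor locus, and which in the tumor groups received subcutaneous fragments of MT-ret melanoma. The groups were unchallenged lung, lung metastasis and primary tumor, with tumor microenvironment (TME) libraries made from living tdTomato+ host cells, some after depletion of CD45+ leukocytes, and malignant melanoma (MM) libraries made from tdTomato- cells. Which libraries were CD45-depleted was not given in the sources used here, and the tissue label reads lung for the primary tumors too. Dissociated tissue was frozen before sorting, and the melanoma came from a single transgenic model. Per the paper, primary tumors were removed by surgery before the mice were followed for metastasis. It adds that metastasis samples held a little adjacent tissue free of tumor. Surgery and the sampled region thus differ between the lung groups, and their part in the comparisons below was not tested.

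After identical libraries were counted once, 100359 cells in 16 libraries remained, with 1777036 to 60339415 UMIs per library and a median of 1203 to 5356 UMIs per cell. Any pair of libraries shared at most 227 barcodes. Clustering without the member genes gave 24 clusters, of which 2 raised all 14 RCC markers, among them Foxj1 and Sec14l3. The deeper RCC cluster held 761 cells at a median of 5606 UMIs, and the shallow one held 7444 cells at a median of 1642 UMIs, of which 7247 came from unchallenged lung replicate 6. That library stood apart. Its RCC carried 8322 CPM of macrophage markers, against 162 to 669 CPM in the RCC of the other 4 libraries used. They also carried 6863 CPM of the club cell gene Scgb1a1, against 903 and 3040 CPM in lung replicates 1 and 5. For that gene metastasis replicate 6 gave 2535 CPM, but metastasis replicate 5 lay above lung replicate 6, at 11421 CPM. Both Foxj1 and Sec14l3 were seen in 87.0 to 100.0% of deeper-cluster cells per library, but in 35.0% of the shallow cells of that library. Levels are therefore given in the deeper cluster, and comparisons both over all RCC and in the deeper cluster alone.

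RCC came almost wholly from lung and metastasis TME libraries. Unchallenged lung replicates 1, 4, 5 and 6 held 19, 3, 445 and 7444 RCC, and metastasis TME replicates 1-3, 4, 5 and 6 held 5, 0, 241 and 45. None of the 4 primary tumor TME libraries held any, and the sorted MM libraries held 3 in all. Only libraries with at least 10 RCC were used, which left lung replicates 1, 5 and 6 and metastasis replicates 5 and 6.

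The stretches of 120 bases just before the RefSeq start (GRCm38) are shown for 4 members that stand for the main patterns below. They are the major outer arm chain Dnah5 (chr15:28203646-28203765, plus strand), its partner Dnah9 (chr11:66168552-66168671, minus strand), the RCC-rich Cfap44 (chr16:44394679-44394798, plus strand) and the widely transcribed Cfap20 (chr8:95434870-95434989, minus strand). Capitals mark the RFX core GTTGCC and the GC box GGGCGG on either strand, and the forkhead core TGTTTAC was also searched.
Dnah5: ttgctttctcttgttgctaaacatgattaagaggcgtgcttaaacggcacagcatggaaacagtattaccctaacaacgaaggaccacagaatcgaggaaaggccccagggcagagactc
Dnah9: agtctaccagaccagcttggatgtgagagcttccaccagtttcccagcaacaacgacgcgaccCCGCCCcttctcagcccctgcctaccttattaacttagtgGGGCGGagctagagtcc
Cfap44: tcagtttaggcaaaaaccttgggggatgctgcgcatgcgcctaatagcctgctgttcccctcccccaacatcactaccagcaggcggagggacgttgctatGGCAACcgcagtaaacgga
Cfap20: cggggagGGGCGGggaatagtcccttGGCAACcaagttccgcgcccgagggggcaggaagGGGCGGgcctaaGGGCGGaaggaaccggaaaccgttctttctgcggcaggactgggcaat

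RFX factors and Foxj1, a forkhead factor, are known regulators of ciliary genes, which is why these letters were searched. RefSeq windows of 300 bases, from 250 before to 50 after the start, matched 42 of the 51 members. GTTGCC on either strand lay in the windows of 16 of these 42 (38.1%), against 14.2% of 20267 genes with a window. TGTTTAC lay in 3 (7.14%, against 3.63%) and GGGCGG in 22 (52.4%, against 45.8%). Of the 30 members with a window that are called RCC-rich further below, GTTGCC lay in 10 (33.3%), TGTTTAC in 1 (3.33%) and GGGCGG in 17 (56.7%). Of the 12 others they lay in 6 (50.0%), 2 (16.7%) and 5 (41.7%). In Cfap44 the RFX core began 19 bases before the start, and Dnah5 held none of the motifs within the stretch shown. A match is a description of letters and not a site of binding.

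Within the deeper RCC cluster, the members together gave 10933, 13463 and 12811 CPM in lung replicates 1, 5 and 6, and 10485 and 15197 CPM in metastasis replicates 5 and 6. The mean was 12577.6 CPM ± 1922.5 (SD, n = 5), and the metastasis values enclosed the lung values. Cfap genes made up 56.2 to 66.0% of member UMIs, the heavy chains other than those of the outer arm 20.2 to 29.3%, outer arm chains 9.66 to 12.3% and assembly factors 3.29 to 4.85%. The 10 genes with the highest levels held 48.5% of member UMIs. By mean level, 36 members lay above 100 CPM, 12 between 10 and 100 CPM, and 3 below 10 CPM.

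Outer arm heavy chains were split between 3 genes with high levels and 2 at or near 0. Dnah5 (chr15:28203752-28472052, plus strand), whose loss is a classical cause of primary ciliary dyskinesia, gave 582, 912 and 952 CPM in lung replicates 1, 5 and 6 and 572 and 1008 CPM in metastasis replicates 5 and 6. Dnah9 (chr11:65831282-66168551, minus strand), the chain of the distal cilium, gave 246, 345 and 352 CPM in lung and 242 and 367 CPM in metastasis. In both genes the lower metastasis library lay below all lung libraries and the higher one above them. Dnah11, the chain of the proximal cilium, gave 388, 301 and 264 CPM in lung and 186 and 327 CPM in metastasis. The remaining chains are known from sperm flagella. Dnah8 reached 7.43 CPM ± 2.99 (SD, n = 5), from 1 to 11 UMIs per library, while Dnah17 had 0 UMIs among the 4384068 UMIs of the cluster, which allows a level of up to 0.68 CPM by counting error alone.

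Among the other axonemal heavy chains, most of which belong to inner arms, Dnah12, Dnah6 and Dnah3 led. Dnah12 (chr14:26693274-26891703, plus strand) gave 634, 1141 and 824 CPM in lung replicates 1, 5 and 6, and 539 and 1388 CPM in metastasis replicates 5 and 6. Dnah6 gave 440.3, 721 and 713 CPM in lung and 497 and 796 CPM in metastasis. Dnah3 gave 433, 486 and 330.4 CPM in lung and 346 and 950.4 CPM in metastasis, so that a single metastasis library stood above the other 4 libraries. Dnah10 and Dnah2, the pair of chains of the double-headed inner arm, lay lower at 267 CPM ± 116 and 96.9 CPM ± 35.5 (SD, n = 5). Dnah1 reached 125 CPM ± 21.2. The near-identical copies Dnah7a, Dnah7b and Dnah7c had means of 174, 157 and 119 CPM, but reads can be split or lost between such copies, so their separate levels are uncertain. Dnah14 had 6 UMIs in the cluster, a mean of 1.67 CPM.

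All 5 assembly factors were detected in each library, at lower UMI levels than the leading heavy chains. Dnaaf4 gave 157, 216 and 237 CPM in lung replicates 1, 5 and 6 and 114 and 141 CPM in metastasis replicates 5 and 6, so that the groups did not overlap. Mean levels were 129 CPM ± 18.1 for Dnaaf3, 89.7 CPM ± 12.3 for Dnaaf1, 67.3 CPM ± 24.4 for Dnaaf2 and 60.9 CPM ± 3.94 for Dnaaf5 (SD, n = 5). Dnaaf5 was among the most even members across the 5 libraries. Exons of Dnaaf2 and Dnaaf3, as well as of Cfap43 and Cfap299, overlap another annotated gene on the same strand, so that their UMIs cannot be assigned to 1 gene with certainty.

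Among Cfap genes, Cfap126 (Flattop; chr1:171113918-171126967, plus strand), which positions basal bodies and lies within the doublet microtubules, led with 664, 794 and 797 CPM in lung replicates 1, 5 and 6 and 997 and 623 CPM in metastasis replicates 5 and 6. The metastasis values again enclosed those of lung. Cfap44 and Cfap43, partners in the tether of an inner arm motor, reached 618 CPM ± 174 and 483 CPM ± 115 (SD, n = 5). Cfap298, needed for dynein arm assembly, reached 511 CPM ± 43.1, and Cfap53, which helps to hold outer arms, 464 CPM ± 56.5. The central apparatus genes Cfap69, Cfap54 and Cfap65 had means of 421, 384 and 378 CPM, Cfap206 of the radial spokes 371 CPM, and Cfap45, a protein inside the doublets, 337 CPM. At the low end, Cfap73 and Cfap99 lay at 17.8 CPM ± 7.12 and 17.7 CPM ± 7.53.

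**Figure D1:**
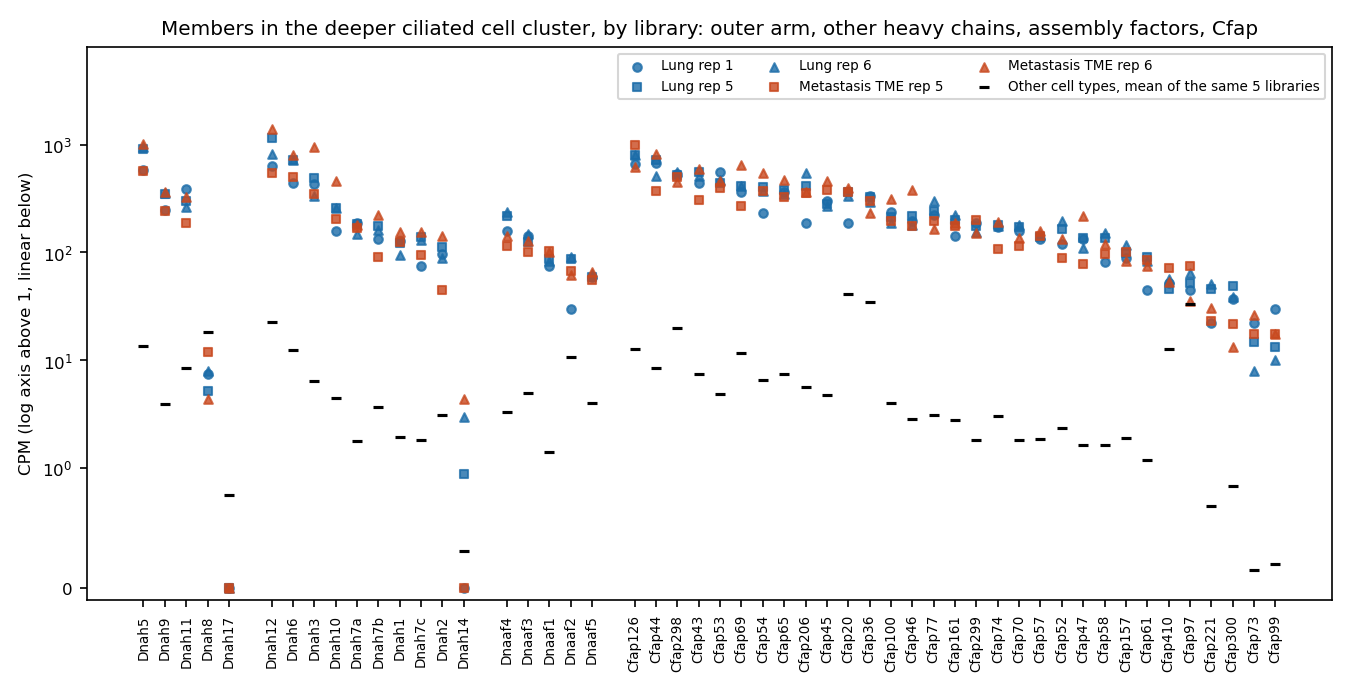
CPM (vertical axis, linear below 1 and logarithmic above) of each of the 51 members (columns, by role) in the deeper RCC cluster of 3 unchallenged lung and 2 metastasis TME libraries (points), with the mean of the other cell types of these 5 libraries (bars). The bars pool fibroblasts, endothelium, macrophages, neutrophils and B, T and NK cells, without club, AT-2 and MM cells. Most points lie far above the bars, while Dnah8 lies below its bar and Dnah17 is at 0 in all 5 libraries.

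The other cell types taken were fibroblasts, endothelium, macrophages, neutrophils and B, T and NK cells, pooled without club, AT-2 and MM cells. Against their mean in the same 5 libraries, 43 members were over 10-fold higher in deeper RCC, with 1 CPM added to both levels. So were 5.99% of the 14971 genes with at least 3 UMIs in the deeper cluster. The clusters were built from the same cells, so this is a description. Cfap53 and Cfap44 had the largest ratios among Cfap genes, 124-fold and 120-fold (119.71), and Dnah5 was 113-fold higher. In the primary tumor TME and sorted MM libraries, counted without metastasis MM replicate 4, without the unnamed cluster and without the 1 further RCC, there were 54655 cells and 179651447 UMIs. Among them, Dnah5 had 6 UMIs (0.03 CPM), Dnah9 had 6 and Cfap206 had 1. By this measure 37 members lay below 2 CPM there and more than 10-fold higher in RCC, and are called RCC-rich members below. Most UMIs of this pool came from MM cells, so it says little of host cells. In primary tumor TME alone, with 30003664 UMIs and no RCC, 3 of the 37 lay above 2 CPM, namely Dnaaf3 at 5.30, Cfap45 at 2.87 and Cfap69 at 2.70 CPM. Cfap69 gave 6.80 to 24.0 CPM in primary tumor endothelium, and Dnah12 was found in macrophages, as given below.

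A smaller set of members was broadly transcribed. Cfap20 was 7.65-fold, Cfap36 8.45-fold, Dnaaf2 5.81-fold and Cfap410 4.42-fold higher in the deeper cluster than in the pooled other types, and Cfap97 only 1.58-fold. Cfap20, an axonemal protein that is also found in the nucleus, gave 186.6 to 393 CPM in deeper RCC, against 52.8 to 61.9 CPM in lung endothelium, 56.7 to 74.8 CPM in primary tumor fibroblasts and 46.0 to 60.3 CPM in the MM cells of sorted MM libraries. Cfap97 gave 35.4 to 74.5 CPM in deeper RCC, 42.5 to 46.8 CPM in lung endothelium and 25.5 to 34.4 CPM in the MM cells of sorted MM libraries, so that its RCC and endothelial ranges overlapped. Cfap410, which acts with the kinase Nek1, gave 46.4 to 72.3 CPM in deeper RCC, 27.6 to 42.8 CPM in the MM cells of sorted MM libraries and 46.9 CPM in the 2062 MM cells of metastasis TME replicate 5, so that its RCC and MM ranges met. The other TME libraries held at most 15 MM cells each, and their values reached 92.05 CPM for Cfap410 and 108.1 CPM for Cfap97. Dnah14, Dnah17 and Dnah8 were the other 3 members with ratios below 2.

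**Figure D2:**
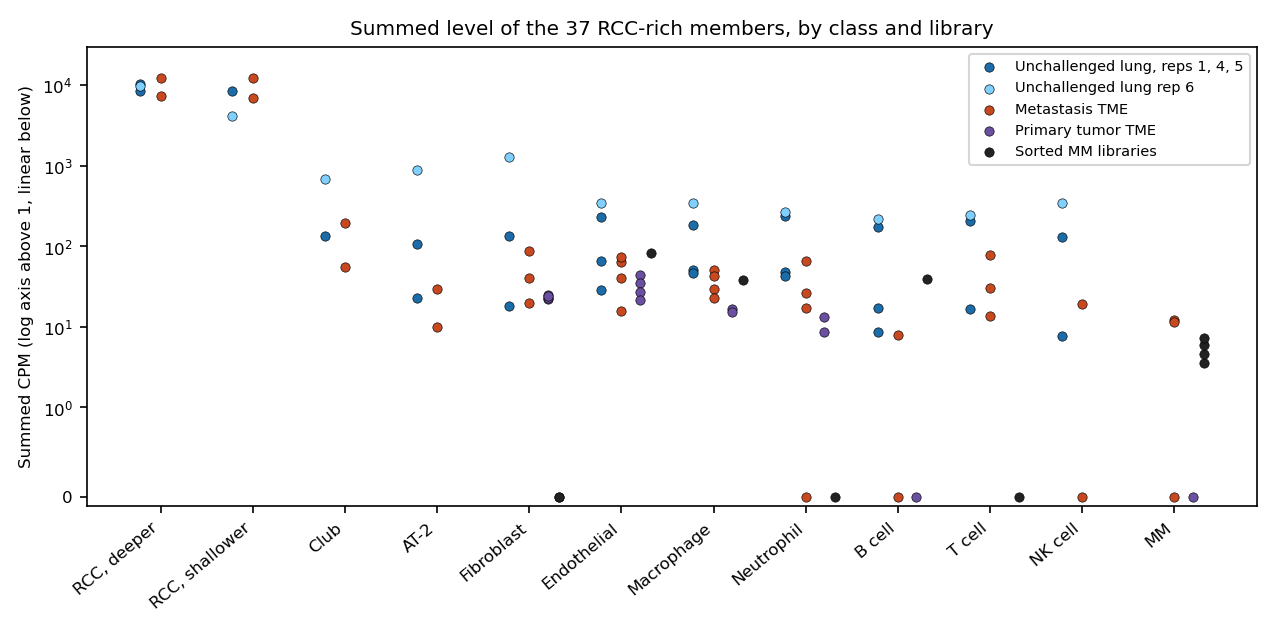
Summed CPM of the 37 RCC-rich members in each cell class (columns) and library (points, colored by group), on a vertical axis that is linear below 1 and logarithmic above. RCC lie above the other named classes, as the choice of these members fixes, and among the others those of unchallenged lung replicate 6 reach up to 1278.

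Outside RCC, the summed level of the RCC-rich members depended on the library. In unchallenged lung replicate 6, it was 1278 CPM in fibroblasts, 892 CPM in AT-2 cells, 686 CPM in club cells, 351 CPM in macrophages and 342 CPM in endothelium. In metastasis TME it was 55.0 and 197 CPM in club cells, 29.4 CPM in AT-2 cells of replicate 5, and 40.5 and 87.5 CPM in fibroblasts of replicates 5 and 6. AT-2 cells of replicates 1-3 and fibroblasts of replicate 4 held 1 such UMI each, with exact Poisson 95% intervals of 0.25 to 55.7 and 0.51 to 112.2 CPM. The other unchallenged lung libraries gave 18.1 and 135 CPM in fibroblasts of replicates 4 and 5, 23.1 and 106 CPM in AT-2 cells of replicates 1 and 5, and 133.5 CPM in club cells of replicate 5. Lung replicate 5 was also high in endothelium, macrophages and neutrophils, at 234 CPM, 185 CPM and 237 CPM, against at most 73.1, 51.7 and 65.1 CPM in metastasis TME. Lung replicates 1 and 4 lay within the range of the metastasis libraries in these classes, at 65.9 and 28.4 CPM in endothelium, 51.4 and 47.3 CPM in macrophages and 48.3 and 43.1 CPM in neutrophils. MM cells are not set beside them, because low levels in their libraries were part of the choice of these members. Set against the RCC marker Sec14l3 in lung replicate 6, there were 2.53 member UMIs per Sec14l3 UMI in RCC, 2.43 in AT-2 cells, 2.74 in fibroblasts, 3.40 in macrophages and 3.90 in endothelium. Club cells lay lower at 1.28. In lung replicate 5 the ratios were further apart, at 2.71 in RCC, 0.65 in AT-2 cells, 5.23 in fibroblasts, 4.65 in macrophages, 3.18 in endothelium and 0.114 in club cells. Metastasis replicate 5 gave 1.99 in RCC, 0.344 in club cells, 0.275 in AT-2 cells and 4.06 in fibroblasts. Across these 3 libraries club cells held fewer member UMIs per Sec14l3 UMI than RCC, and fibroblasts held more. In lung replicate 5, club cells gave 1173 CPM of Sec14l3 and 14.4 CPM of Foxj1, against 3737 and 680 CPM in RCC. The fibroblast ratios of lung replicate 5 and metastasis replicate 5 rest on 26 and 18 Sec14l3 UMIs. The part of free RNA from broken ciliated cells in the member levels was not tested.

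Shares of cells were counted as well. The RCC-rich members were chosen for levels over 10-fold higher in the deeper cluster than in pooled other types, macrophages among them. Their high shares in RCC, and the contrast of RCC with macrophages, follow from this choice. After each cell was thinned to 1000 UMIs, at least 1 RCC-rich member was seen in 100.0% of deeper RCC in all 5 libraries, with exact binomial 95% intervals reaching down to 81.5% in the 18 cells of lung replicate 1 and to 98.9% in the 324 cells of lung replicate 5. Median numbers of RCC-rich members per thinned cell were 6 to 10 in the deeper cluster and 3 in the shallow cells of lung replicate 6. Club cells showed a member in 8.16% of cells in lung replicate 5, and 9.52% and 5.77% in metastasis replicates 5 and 6, but 40.1% in lung replicate 6, where fibroblasts reached 47.5%. Macrophages, which have no motile cilia, showed a member in 18.9% of cells in lung replicate 5, 2.74% and 6.77% in metastasis replicates 5 and 6, and 29.1% in lung replicate 6. Club cells thus lay below macrophages in lung replicate 5 and metastasis replicate 6 and above them in the other pair of libraries, and the exact intervals of both types overlapped in metastasis replicates 5 and 6. The macrophage shares include Dnah12, which is described below. Unthinned, the club cell shares outside lung replicate 6 were 51.0%, 18.6% and 22.6%, at median depths of 4016, 2771 and 4695 UMIs, against 58.5%, 9.33% and 20.4% in the macrophages of these libraries at 5037, 3196 and 4124 UMIs. The part of free RNA in these shares was not tested. The intervals cover counting error only.

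The comparison that the design allows is RCC of metastasis-bearing lung against RCC of unchallenged lung, by edgeR's quasi-likelihood test on the summed UMIs of 3 lung and 2 metastasis libraries. None of the 49 members tested was called at a Benjamini-Hochberg adjusted p below 0.05 and none had an unadjusted p below 0.05, against 0.223% and 8.17% of all 10302 genes tested. The lowest adjusted p of a member was 0.627. DESeq2 called no member either, with 1 below 0.05 unadjusted. Standard errors of the members' log2 fold changes were 0.39 to 0.73, and the folds ran from -0.96 to 0.93. A threshold missed with errors of this size does not show equal levels.

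Of the 49 members, 41 had a fold above 0 (47.7% of all genes did), with a median log2 fold of 0.31 against -0.04 for all genes. This lean moved with lung replicate 6. Its RCC had a summed member level of 5955 CPM, against 11012 and 13025 CPM in lung replicates 1 and 5 and 10225 and 15151 CPM in metastasis replicates 5 and 6. Without it, 28 of 48 members were positive (51.2% of all genes), their median was 0.04, and 0 were called (0.903% of all genes), with 1 below an unadjusted p of 0.05 (6.89% of all genes). In the deeper cluster alone, 25 of 48 were positive (50.8% of all genes) with a median of 0.03, 0 were called against 1.46% of 9537 genes, and 4 had an unadjusted p below 0.05 against 13.9%, namely Cfap300, Dnaaf4 and Cfap221 toward lung and Cfap45 toward metastasis. The lowest adjusted p there was 0.217 in edgeR's quasi-likelihood test. In cells with both Foxj1 and Sec14l3, which kept 3311 cells of lung replicate 6, the lean remained. There, 41 of 48 members were positive, with a median of 0.35 against -0.01 for all genes.

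**Figure D3:**
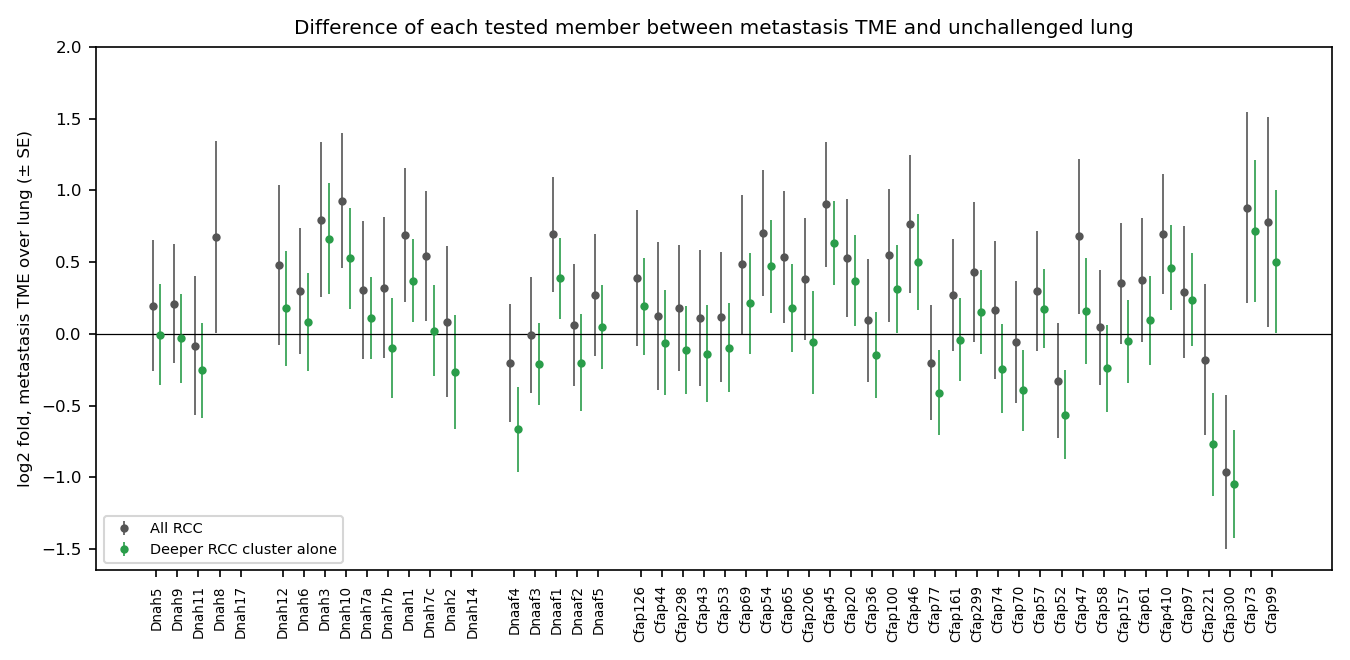
Log2 fold change (vertical axis) of each tested member (columns) in metastasis TME relative to unchallenged lung with its standard error (bars), over all RCC and in the deeper RCC cluster. Most folds over all RCC lie above 0, with a median of 0.31, while those of the deeper cluster are spread around 0, with a median of 0.03.

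Among single members, Dnah5 gave 580.0, 897 and 492.8 CPM over all RCC of lung replicates 1, 5 and 6 and 551 and 972 CPM in metastasis replicates 5 and 6, a log2 fold of 0.20 (SE 0.46, edgeR adjusted p = 0.937). Dnah9 gave 242, 341 and 165 CPM in lung and 236 and 346 CPM in metastasis, a log2 fold of 0.21 (SE 0.42, edgeR adjusted p = 0.923). The groups overlapped for both outer arm chains, and their sign turned in the deeper cluster. Dnaaf1, with 73.4, 79.6 and 41.3 CPM in lung and 102 CPM in each metastasis library, was higher in both metastasis libraries than in any lung library, with a log2 fold of 0.69 (SE 0.40, edgeR adjusted p = 0.690).

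Folds with the largest size came from both ends of the list. Cfap45 gave 294, 257 and 119 CPM in lung and 364 and 452 CPM in metastasis, a log2 fold of 0.90 (SE 0.44, edgeR adjusted p = 0.627). Dnah10 gave 154, 262 and 118 CPM in lung and 214 and 482 CPM in metastasis, a log2 fold of 0.93 (SE 0.47, edgeR adjusted p = 0.647). The groups were apart for Cfap45 and overlapped for Dnah10. Dnah3 and Cfap73 had log2 folds of 0.80 (SE 0.54) and 0.88 (SE 0.66). Toward lung, Cfap300, a dynein assembly gene on chromosome 9, gave 36.7, 47.5 and 22.9 CPM in lung and 21.6 and 11.3 CPM in metastasis, a log2 fold of -0.96 (SE 0.54, edgeR adjusted p = 0.675). Its metastasis libraries lay below all lung libraries, but metastasis replicate 6 rested on 3 UMIs. Cfap52, Dnaaf4 and Cfap77 had log2 folds of -0.33, -0.20 and -0.20, each with an SE of 0.40 to 0.41.

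Libraries that did not overlap were counted too. Over all RCC, 4 members (Cfap45, Dnaaf1, Cfap410 and Dnah1) were higher in both metastasis libraries than in every lung library and 1 (Cfap300) was lower, against 11.8% of all genes in each direction. In the deeper cluster, 2 (Cfap45 and Dnaaf1) were higher and 5 (Cfap77, Cfap300, Dnaaf4, Cfap70 and Cfap298) were lower, against 11.2% and 15.5% of all genes. The members' shares were thus at or below those of all genes.

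RNA of other cells moved with the tissue. MM markers summed to 5.9 to 31.4 CPM in the RCC of lung, and to 3912 and 1156 CPM in those of metastasis replicates 5 and 6, with 11 of 11 markers detected in both. All 23 genes called over all RCC were higher in metastasis, among them the melanocyte genes Dct, Pmel, Mlana, Tyrp1 and Sox10, and all 23 had higher levels in the MM cells or fibroblasts of metastasis replicate 5 than in its RCC. In the deeper cluster 124 genes were called higher and 15 lower, and without lung replicate 6 the counts were 67 and 11. The part of this RNA in the folds of the members was not tested.

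Other genes of the motile cilium were counted from lists in the same edgeR test over all RCC. None was called among 7 ciliary transcription factors tested, 11 radial spoke, 7 central pair, 10 nexin-dynein regulatory complex and 8 docking genes, 10 further assembly helpers, 16 light and intermediate chains, 20 intraflagellar transport and 4 cytoplasmic dynein genes. Their median log2 folds ran from 0.02 in transcription factors to 0.45 in intraflagellar transport, with unadjusted p below 0.05 for 1 gene each in the transcription factors, the regulatory complex, the assembly helpers and intraflagellar transport. Of 19 microtubule inner and tubulin genes, only Tubb3, a tubulin of neurons, was called, with a log2 fold of 6.77 (edgeR adjusted p = 0.00456). In metastasis replicate 5 its level was 54.1 CPM in RCC and 524.5 CPM in MM cells. None of 9 immediate early and stress genes was called, and their median was -0.37. In the deeper cluster, the medians of the lists with no call ran from -0.435 in transcription factors to 0.16 in assembly helpers, and that of the stress genes was 0.52. The sign of the median turned for transcription factors, radial spoke genes, light and intermediate chains and stress genes, and stayed positive for the other 6 lists with no call. There, 3 of 6 transcription factors and 3 of 9 stress genes had an unadjusted p below 0.05, against 13.9% of all genes, with none called. Radial spoke genes gave 2 of 11, central pair 0 of 7, the regulatory complex 1 of 10 and docking genes 0 of 8. Assembly helpers gave 1 of 10, light and intermediate chains 1 of 16, intraflagellar transport 2 of 21 and cytoplasmic dynein 0 of 4.

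In club and AT-2 cells, the neighboring secretory types, few members had enough UMIs to be tested. Cfap20, Cfap36, Cfap97 and Cfap298 passed in both types. Club cells of 2 lung and 2 metastasis libraries gave log2 folds of 0.23, 0.11, 0.47 and -0.30 for these genes, none called by edgeR or DESeq2 or below an unadjusted p of 0.05, against 1.22% of 4523 genes called and 9.66% below that p. The fold was above 0 for 3 of the 4, against 52.3% of all genes. AT-2 cells of 3 lung and 2 metastasis libraries gave -0.12, 0.26, -0.03 and -0.63, again with none called by either tool or below an unadjusted p of 0.05, and 1 of 4 above 0 against 44.3% of all genes. There edgeR called 0 of 7538 genes, with 705 (9.35%) below an unadjusted p of 0.05, and DESeq2 called 10.

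Levels outside RCC are given for Dnah8 and Dnah12, which were singled out after their values were seen. Dnah8 (chr17:30624354-30877365, plus strand) was higher in endothelium than in deeper RCC of the same tissue. Lung endothelium gave 69.9, 62.0, 48.4 and 29.8 CPM in replicates 1, 4, 5 and 6, and metastasis endothelium 89.6, 45.7, 22.5 and 29.8 CPM in replicates 1-3, 4, 5 and 6, against 4.42 to 12.1 CPM in deeper RCC, where the values of lung replicate 1 and metastasis replicate 6 rest on 1 UMI each. Primary tumor endothelium lay lower, at 16.0, 3.82, 1.42 and 4.53 CPM, from 1 to 6 UMIs each. T cells gave 100.1, 80.9 and 23.9 CPM in lung replicates 4, 5 and 6 and 66.7 CPM in metastasis replicate 4. In metastasis replicates 1-3 and 6 the T cell values were 15.5 and 117 CPM, from 1 and 3 UMIs. MM cells gave 0.21 to 0.91 CPM in the 4 libraries with at least 2062 of them. The other 4 libraries, with 12 to 274 MM cells, held 0 Dnah8 UMIs, which allows up to 2.12 CPM in metastasis MM replicate 4 and up to 89.0 CPM in metastasis TME replicate 4.

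Dnah12 was present in macrophages in excess of Dnah5. It gave 17.2, 31.0, 57.4 and 47.0 CPM in macrophages of lung replicates 1, 4, 5 and 6, 17.9, 26.9 and 3.31 CPM in metastasis TME replicates 1-3, 4 and 5, and 1.84 and 1.15 CPM in primary tumor TME replicates 1-3 and 4. The value of metastasis replicate 5 rests on 1 UMI, and replicate 6 lay between it and replicates 1-3 with 8 UMIs. The lung and metastasis ranges overlapped. In lung replicate 4, where 3 RCC were found, macrophages held 157 Dnah12 UMIs and 1 Dnah5 UMI. In lung replicate 1 they held 45 and 2, and in metastasis replicates 1-3 they held 48 and 1. Deeper RCC had 0.87 to 1.38 Dnah12 UMIs per Dnah5 UMI. Macrophages of lung replicate 5 had 5.66, from 673 Dnah12 UMIs beside 119 of Dnah5. Those of lung replicate 6 had 1.35, within the range of deeper RCC. Dnah11 gave 14.1 CPM in macrophages of lung replicate 1, against 0.76 CPM of Dnah5. Endothelium held 27, 37, 134 and 37 Dnah12 UMIs in lung replicates 1, 4, 5 and 6, beside 5, 3, 108 and 47 of Dnah5. The source of these UMIs was not tested.

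**Figure D4:**
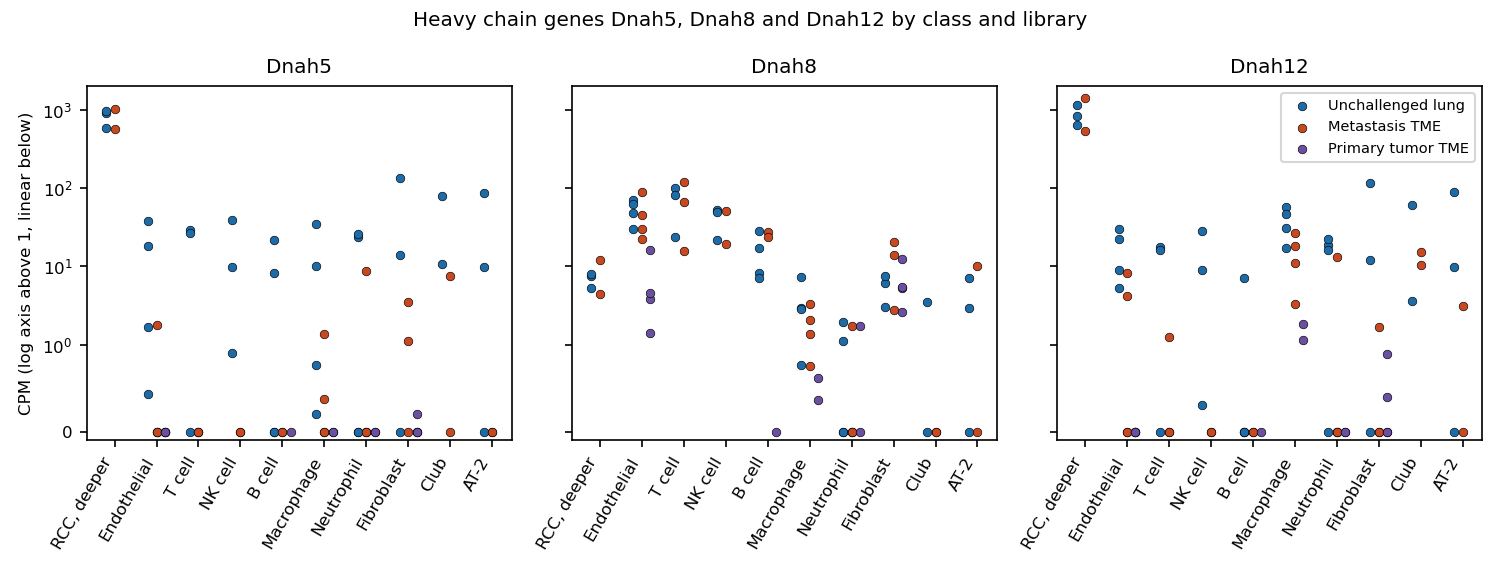
CPM (vertical axis, linear below 1 and logarithmic above) of Dnah5, Dnah8 and Dnah12 (panels) in each cell class (columns) and library (points, colored by group). Dnah5 is high in RCC, Dnah8 is spread over endothelium and lymphocytes, with the top T cell point resting on 3 UMIs, and Dnah12 is high in RCC and present in lung macrophages at 17.2 to 57.4 CPM.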

How the data were processed

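The authors sorted cells, made 10x Chromium 3' v3.1 libraries and, per the labels, used Cell Ranger 6.1.1, Seurat 3.2.2 and GRCm38 (mm10). They deposited a whole-number UMI count table for genes by cells, with cell metadata naming the library, and a normalized table that was not used here. Of 24 library names, 5 repeated the cells of another library and were counted once, which removed 9924 of 110283 barcodes. Both metastasis libraries compared are among those repeated: metastasis TME replicate 5 equals replicate 7, and replicate 6 equals both TME replicate 8 and metastasis MM replicate 6. Each of these repeats carries another mouse number. The animal of both libraries, and for replicate 6 the sorted fraction, are therefore in doubt. The library of lung replicate 1 carries the number 2 in the metadata. Libraries numbered 1-3 carry 1 sample title per group and count as 1 library each, called pools here. The metadata keeps their cells apart, under 2 names in metastasis TME and 3 in primary tumor TME.

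Cells were clustered with Seurat 5.3.0 (2000 variable genes less 16 members, 17 principal components, resolution 0.5) and named from marker lists. A cluster of 99 cells with both RCC and melanoma RNA was left unnamed by a rule added after its values were seen. No doublet caller was run, and results were recomputed without the 5% deepest RCC. UMIs were summed per library and class with at least 10 cells and tested with edgeR 4.0.16 (quasi-likelihood, TMM, filterByExpr) over all genes, with DESeq2 1.42.0 as an alternative. The scripts were tested on simulated data. For the RCC comparison, 2% of 50 genes changed by a log2 fold of 1 were called. At log2 folds of 2, 3 and 4 the shares were 22%, 66% and 86%, with 5 false calls among 9816 genes tested. The members' log2 folds over all RCC ran from -0.96 to 0.93, where such a test calls few changed genes. Replicates are separate samples per the labels, pools aside, and where nothing says that they came from separate animals, p-values measure only the spread between libraries. Run follows replicate number only in part, with replicates 1 to 3 in run 1, replicate 4 in run 2 and replicates 5 and 6 in run 3. Of the RCC libraries compared, lung replicate 1 is from run 1 and all others are from run 3. A block on replicate number in RCC holds replicates 5 and 6 only, all of run 3. Per the metadata, unchallenged lung and metastasis libraries of the same number share a run and not a mouse, while metastasis and primary tumor libraries of the same number can come from 1 mouse.

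Members and gene lists were chosen with earlier results of these data known. Named in the text were all dynein and assembly genes, the 10 highest and 5 most even Cfap genes, the 4 largest folds each way and Dnah5, Dnah9 and Dnaaf1. Gene positions are from GENCODE vM21 (GRCm38), found for 48 of 51 members, and promoter sequences are from RefSeq (GRCm38).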

Additional observations from a re-analysis of the deposited data

Results flagged for a closer look

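In 3 of 26 groups of 4 to 10 libraries examined, 1 library lay far from the others. The rule flags about 1 in 20 groups of normally spread values. It always flags a group in which all libraries but 1 are at 0, as in these 3. Dnah12 in B cells of unchallenged lung reached 7.12 CPM in 1 library, from 2 UMIs. In neutrophils of metastasis TME, Dnah12 reached 13.0 CPM in 1 library, from 3 UMIs, and Dnah8 1.71 CPM in 1 library, from 1 UMI. The other libraries were at 0, which allows up to 51.5 CPM in the B cells and up to 84.1 CPM in the neutrophils, so no difference between libraries can be read from these counts.

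The cluster with both RCC and melanoma RNA, which entered no comparison, also held cells of sorted MM libraries. Its summed level of the 37 RCC-rich members was 808 CPM in metastasis MM replicate 5 and 1394 CPM in primary tumor MM replicate 5. In the MM cells of these libraries the same sum was 4.59 and 7.31 CPM, but low levels there were part of how these members were chosen. The cells of this cluster in metastasis TME replicate 5 reached 5441 CPM.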

How the results depend on the processing

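Over all RCC, the number of members called remained 0 in 23 of 24 alternatives (main 0), the fit with the replicate block among them, and was 1 in the deeper cluster without metastasis replicate 6 (Dnah2, log2 fold -1.07, edgeR adjusted p = 0.0405), a range of 0 to 1. That fit, like each one below without a metastasis library, has 1 metastasis library, which is assumed to vary like the lung libraries. The number of genes called (23) moved to 42 in cells with both Foxj1 and Sec14l3, 139 in the deeper cluster, 133 in its replicates 5 and 6, 39 after thinning, 11 with at least 20 cells or with replicates 5 and 6 only, 0 with at least 50 cells, 698 without a filter, 189 with the replicate block and 38 with the unnamed cluster. It ranged from 2 to 900 when 1 library was left out, with 11, 202, 78, 2 and 9 over all RCC without lung replicates 1, 5 and 6 and metastasis replicates 5 and 6. In the deeper cluster these were 133, 57, 58, 29 and 900. The cause was not tested. Unchallenged lung and metastasis libraries with a shared number are different mice, and the AT-2 libraries share only 1 number, so no block was fitted there.

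Log2 folds that changed sign were Dnaaf4 (0.20 after thinning), Cfap77 (0.11 with at least 50 cells), Dnah5 (-0.01 in the deeper cluster, -0.16 in its replicates 5 and 6, -0.26 with at least 50 cells) and Dnah9 (-0.03, -0.13 and -0.02 in these, and -0.12 after thinning). With 1 library left out, Dnaaf4 ranged from -0.45 to 0.04 over all RCC and down to -0.80 in the deeper cluster, Cfap77 from -0.42 to 0.02 and down to -0.63. Over both sets of cells the ranges were -0.16 to 1.32 for Dnah3, -0.12 to 1.40 for Dnah10, -0.43 to 0.54 for Dnah5 and -0.32 to 0.49 for Dnah9. Ranges that kept their sign were -1.69 to -0.56 for Cfap300, -0.80 to -0.04 for Cfap52 and 0.53 to 1.13 for Cfap45. Cfap73 likewise ranged from 0.33 to 1.47 and Dnaaf1 from 0.32 to 0.93. The lowest adjusted p of the 11 named members over 262 alternatives was 0.077 in edgeR or DESeq2. The median fold of the members, 0.31, was 0.04 without lung replicate 6 and 0.03 in the deeper cluster. It was 0.35 in cells with both Foxj1 and Sec14l3, 0.43 after thinning and 0.45 with the replicate block. Over the alternatives it ranged from -0.12, in the deeper cluster without metastasis replicate 6, to 0.58, without lung replicate 5. Members called in club cells (0) became 1 without a filter (Dnah5 lower, range 0 to 1), where 459 of 18032 genes were called, 355 of them lower. Without lung replicate 5 the log2 fold of Dnah5 in club cells was -3.96 (SE 0.81), and the limit of at least 50 cells gives this fit again. That fit has lung replicate 6 as its only lung library, which is assumed to vary like the metastasis libraries. Members called in AT-2 cells (0) became 3 without a filter (Dnah5, Dnah6 and Dnah12 lower), where 383 of 18301 genes were called, 272 of them lower.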

Other observations

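Glp1r, the gene for the GLP-1 receptor, begins 24452 bases after the end of Dnah8 on the same strand of chromosome 17, and was looked at after the level of Dnah8 in endothelium was seen. In endothelium, Glp1r gave 385 to 661 CPM in unchallenged lung, 201 to 643 CPM in metastasis TME and 0 to 63.9 CPM in primary tumor TME, where Dnah8 was lower as well. In T cells, where Dnah8 gave 23.9 to 100.1 CPM in unchallenged lung, Glp1r gave 2.89 to 15.9 CPM. Both genes run in the same direction, and the positions of reads between them were not examined. The source of the Dnah8 UMIs in endothelium was not tested.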
